A study of Mus musculus with 16 samples.

Results

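Endothelial and VEGF receptor genes were followed across RNA-seq libraries of whole mouse kidney. The 10 genes were Kdr, Flt1, Tek, Eng, Vegfa, Pecam1, Cdh5, Plvap, Emcn and Ehd3, chosen by name from 23935 gene symbols in the deposited table, and all 10 were measured and passed the filter on low values that left 12960 genes for testing. Kidneys of wild-type mice came in 4 groups of 4 libraries: NMN before cisplatin, NR before cisplatin, cisplatin without a precursor, and PBS. Cisplatin is a platinum drug that injures the kidney tubule, and nicotinamide riboside (NR) and its phosphorylated form, nicotinamide mononucleotide (NMN), are made into the cofactor NAD by cells. Kidneys were taken 3 days after cisplatin, per the labels; the sources used here give no strain, age, sex or dose. Whether the 4 libraries of a group are 4 mice is not in the labels; the tests therefore rest on a spread between libraries that may be technical.

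Endothelial cells line every blood vessel of the kidney, from the fenestrated loops of the glomerulus to the fenestrated capillaries around the tubules. VEGF-A, secreted in the kidney mainly by podocytes and tubule cells, signals through the receptor VEGFR2 (Kdr) and is bound with higher affinity by VEGFR1 (Flt1), which also acts as a decoy. TIE2 (Tek) is the receptor of the angiopoietins, and endoglin (Eng) is a co-receptor for BMP9 and TGF-beta. PECAM-1 and VE-cadherin (Cdh5) are adhesion molecules of the junctions between endothelial cells, PLVAP forms the diaphragms of fenestrae and caveolae, endomucin (Emcn) is a surface sialomucin of capillaries and veins, and EHD3 is a membrane trafficking protein that marks glomerular endothelium.

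The members of the signalling pathway lie at separate loci in GRCm38 (GENCODE vM21). Kdr spans chr5:75932827-75978458 and Flt1 chr5:147561604-147726011, both on the minus strand. Tek spans chr4:94739289-94874976 on the plus strand and Vegfa chr17:46016993-46032369 on the minus strand. The promoter windows of Vegfa, of its receptor genes Kdr and Flt1, and of the angiopoietin receptor gene Tek are shown as those of the pathway. They run from 250 bases before to 50 after the RefSeq start (GRCm38.p6), 5′ to 3′ on the gene's strand. Each GGAAG, the core of sites bound by ETS factors, or its complement CTTCC, is in capitals. The windows are chr5:75978406-75978705 for Kdr, chr5:147725962-147726261 for Flt1, chr4:94739039-94739338 for Tek and chr17:46032328-46032627 for Vegfa.
Kdr: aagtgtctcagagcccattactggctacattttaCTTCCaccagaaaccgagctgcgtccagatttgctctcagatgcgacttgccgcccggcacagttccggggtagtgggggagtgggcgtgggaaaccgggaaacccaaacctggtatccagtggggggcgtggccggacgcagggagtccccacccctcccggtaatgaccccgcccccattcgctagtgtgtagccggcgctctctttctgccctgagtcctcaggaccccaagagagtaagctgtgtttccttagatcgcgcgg
Flt1: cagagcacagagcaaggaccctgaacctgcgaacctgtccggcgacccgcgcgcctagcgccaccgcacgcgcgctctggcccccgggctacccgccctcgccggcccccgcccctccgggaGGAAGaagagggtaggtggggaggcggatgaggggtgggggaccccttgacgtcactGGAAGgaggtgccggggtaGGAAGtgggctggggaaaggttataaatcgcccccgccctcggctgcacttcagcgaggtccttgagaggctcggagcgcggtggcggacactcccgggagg
Tek: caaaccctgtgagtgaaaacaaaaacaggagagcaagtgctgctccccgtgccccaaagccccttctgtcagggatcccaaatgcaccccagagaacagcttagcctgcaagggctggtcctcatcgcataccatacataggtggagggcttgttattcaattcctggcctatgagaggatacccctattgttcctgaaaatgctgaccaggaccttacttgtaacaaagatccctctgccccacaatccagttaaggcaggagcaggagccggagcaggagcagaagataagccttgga
Vegfa: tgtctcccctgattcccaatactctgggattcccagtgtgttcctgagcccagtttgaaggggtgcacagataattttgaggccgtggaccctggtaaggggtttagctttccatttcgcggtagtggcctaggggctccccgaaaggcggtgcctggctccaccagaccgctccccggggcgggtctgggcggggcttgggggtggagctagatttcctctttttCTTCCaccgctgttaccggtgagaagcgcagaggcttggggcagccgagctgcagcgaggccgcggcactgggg
The Kdr window held 1 such core, the Flt1 window 3, the Vegfa window 1 and the Tek window 0. RefSeq windows matched 7 of the 10 genes, with 8 windows in all, and GGAAG was found on either strand in 7 of the 8, against 71.4% of all 32851 windows. GATAAG, read by GATA factors, was found in the Tek window alone among the 8, against 7.44% of all windows. GGGCGG, the GC box, was in 5 of the 8 (35.7% of all windows), and ACGTG, the core of the hypoxia response element, in 2 (19.6%), 1 of them a second start inside Vegfa. TGTTTA, a forkhead motif, was in 0 of the 8 (13.4% of all windows). These matches are descriptions of the letters, not sites.

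Levels are in TPM, a unit that the authors scaled by gene length and library total; the read depth behind them is unknown. The listed TPM summed to 860428 to 903678 per library, and 11535 to 12549 genes reached 1 TPM. Differences were tested with limma on log2(TPM + 1) over all 12960 genes, and a gene was called at a Benjamini-Hochberg adjusted p under 0.05. All adjusted p-values below are of this kind. The whole table moved with cisplatin: the median gene stood 0.27 log2 units higher in cisplatin than in PBS, and after median-of-ratios scaling that median was -0.001. The share of higher genes among all called genes was 68.6% without that scaling and 50.5% with it. One library stood apart on the 10 genes. Cisplatin library 1 was the highest of its group for 10 of the 10 genes, at 1.34 to 3.59 times the mean of the other 3 libraries, and it is named beside the results it touches. It also had the most genes at 1 TPM or more of all libraries (12549). The share of all genes for which it was the highest of its group was not computed.

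With PBS, the vascular genes differed widely in level. Vegfa was highest at 184 ± 35.4 TPM, followed by Plvap at 72.8 ± 21.5 and Eng at 38.2 ± 12 TPM (SD, n = 4 each). The ranges of Vegfa and Plvap did not overlap, nor did those of Plvap and Eng. Emcn at 29.0 ± 9.62 TPM overlapped Eng, and both stood above Pecam1 at 12.7 ± 3.66 TPM. Ehd3, Kdr, Cdh5, Tek and Flt1 made up the low end, at 10.4, 6.86, 6.54, 5.46 and 5.18 TPM, and each overlapped its neighbour. The defining endothelial markers Pecam1 and Cdh5 were thus present in the kidneys, and no member was at 0 in any library.

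All 10 genes fell with cisplatin (10 of 10, against 18.6% of the 12960 tested genes called lower and 40.7% called higher). Their log2 fold changes ran from -2.84 to -0.97 with a median of -1.70, beside a median of 0.27 for all genes, and adjusted p-values reached 0.00667 at most. For 9 of the 10, every cisplatin library lay under every PBS library (15.6% of all genes did so); Eng overlapped. Without cisplatin library 1 the count was again 10 of 10, and it was 10 of 10 under median-of-ratios scaling. In whole tissue, fewer endothelial cells and less RNA per endothelial cell cannot be told apart.

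**Figure D1:**
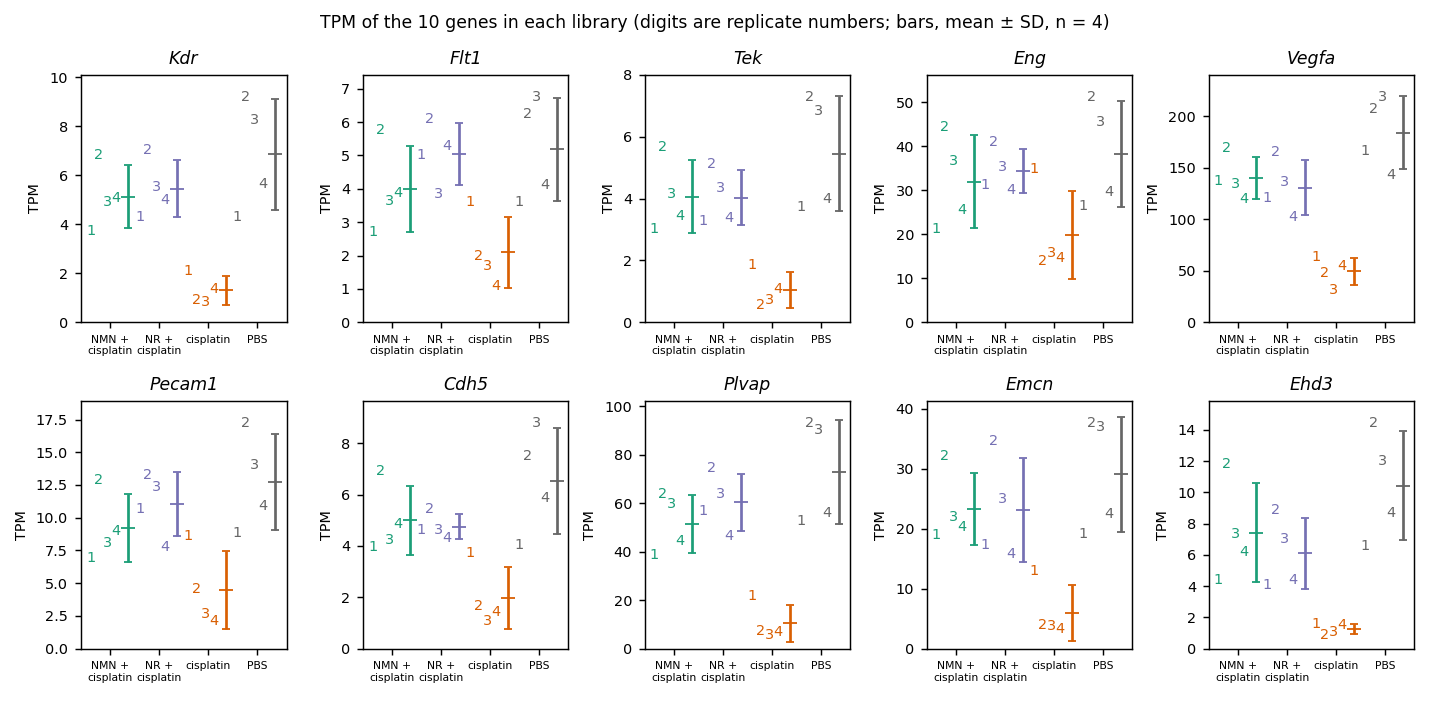
TPM (y axis, linear from 0) of each of the 10 genes in each library, by group from left to right as cisplatin with NMN, cisplatin with NR, cisplatin and PBS. Digits are replicate numbers and bars are mean ± SD of 4 libraries; in the cisplatin group library 1 is the highest for every gene.

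Both VEGF receptor genes fell. Kdr had 2.08, 0.90, 0.84 and 1.37 TPM in the 4 cisplatin libraries, against 4.30, 9.20, 8.28 and 5.66 TPM in the PBS libraries. The groups did not overlap, and Kdr fell by 1.76 ± 0.23 on the log2 scale (SE, adjusted p = 3.07e-06). Flt1 had 3.59, 2.00, 1.68 and 1.1 TPM with cisplatin, against 3.61, 6.25, 6.75 and 4.12 TPM with PBS. Cisplatin library 1 reached almost the lowest PBS library, and Flt1 fell by 1.02 ± 0.24 (adjusted p = 0.0015). The linear ratio of Kdr to Flt1 was 0.694 ± 0.372 in cisplatin and 1.32 ± 0.131 in PBS (SD, n = 4 each). That ratio did not pass a two-sided exact permutation test (p = 0.0857, adjusted over 6 ratio comparisons 0.103). The smallest p that 4 against 4 allows is 0.0286, so an adjusted p under 0.05 needs several of the 6 at that value. Not passing is therefore no evidence of an equal ratio. The ratio was chosen after the values had been seen.

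Tek, the angiopoietin receptor gene, had 1.86, 0.55, 0.71 and 1.09 TPM in cisplatin libraries, against 3.72, 7.28, 6.82 and 4.00 TPM in PBS libraries. The groups were separate, with a fall of 1.65 ± 0.24 (adjusted p = 1.00e-05). Eng, the co-receptor gene, had 34.8, 13.9, 15.8 and 14.6 TPM with cisplatin, against 26.4, 51.2, 45.5 and 29.6 TPM with PBS. Here cisplatin library 1 lay above 2 PBS libraries, and Eng fell by 0.97 ± 0.28 (adjusted p = 0.00667). Without that library the fall of Eng was 1.26 (adjusted p = 0.000285). Eng lies at chr2:32646595-32682669 and shares 61 exonic bases with Fpgs on the opposite strand; no strand setting is stated, so reads over them cannot be assigned.

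Vegfa, the ligand gene, had 63.2, 47.4, 31.7 and 55.0 TPM with cisplatin, against 167, 207, 219 and 143 TPM with PBS. No library of the groups overlapped, and the fall of 1.90 ± 0.20 had the smallest adjusted p of the 10 genes (1.73e-07). The ligand's share relative to its receptor, the linear Vegfa to Kdr ratio, was 40.3 ± 9.28 in cisplatin and 28.2 ± 7.19 in PBS (SD, n = 4 each). It did not pass the exact permutation test (p = 0.0857, adjusted 0.103). The ratio was 28.2 ± 6.03 with NMN and 24.1 ± 3.16 with NR. By the same test against cisplatin, p was 0.0571 with NMN and 0.0286, the smallest possible, with NR (adjusted 0.103 for both). Genes of the cells that make VEGF-A also moved in these libraries. Of 12 podocyte genes 11 fell (18.6% of all genes were called lower), with a list sum of 34.9 to 135 TPM in cisplatin and 127 to 257 TPM in PBS. Of 12 proximal tubule genes 12 fell, among them the phosphate transporter gene Slc34a1, with a sum of 4929 to 8341 TPM in cisplatin and 51580 to 58400 TPM in PBS. Cisplatin library 1 held the highest podocyte sum of its group, with 34.9 to 43.4 TPM in the other 3 libraries, and Npr3 alone of the 12 was listed at 0 in a library. The part of these cells in the Vegfa result was not tested.

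Both junction genes fell. Pecam1 had 8.63, 4.56, 2.62 and 2.08 TPM in cisplatin libraries, against 8.81, 17.2, 14.0 and 10.9 TPM in PBS libraries, a fall of 1.44 ± 0.30 (adjusted p = 4.78e-04). Cdh5 had 3.72, 1.65, 1.06 and 1.43 TPM in cisplatin, against 4.02, 7.49, 8.78 and 5.87 TPM in PBS, a fall of 1.38 ± 0.25 (adjusted p = 9.92e-05). For both, cisplatin library 1 came close to PBS library 1 and the other 3 cisplatin libraries lay well under every PBS library. Pecam1 lies at chr11:106654217-106750628 and Cdh5 at chr8:104101625-104144511.

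The 3 genes of capillary structure and trafficking had the largest falls of the 10 on the log2(TPM + 1) scale; by the ratio of mean TPM, cisplatin over PBS, Kdr (0.189) and Tek (0.193) came before Emcn (0.206). Plvap, the diaphragm gene, had 21.7, 7.40, 5.69 and 6.72 TPM with cisplatin, against 52.5, 92.9, 90.0 and 56.0 TPM with PBS. The cisplatin mean was 0.142 times the PBS mean, and Plvap fell by 2.84 ± 0.31 (adjusted p = 5.23e-07). Emcn had 13.0, 3.86, 3.69 and 3.33 TPM with cisplatin, against 19.1, 37.5, 37.0 and 22.4 TPM with PBS, a fall of 2.24 ± 0.34 (adjusted p = 2.43e-05). Ehd3 had 1.54, 0.85, 1.09 and 1.5 TPM with cisplatin, against 6.59, 14.4, 12.03 and 8.69 TPM with PBS, a fall of 2.31 ± 0.27 (adjusted p = 9.87e-07). For these genes the groups did not overlap, also in cisplatin library 1. Plvap lies at chr8:71497765-71511752, Emcn at chr3:137341067-137432185 and Ehd3 at chr17:73804134-73832094.

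All 10 genes rose with NMN relative to cisplatin (10 of 10, against 15.1% of all genes called higher and 34.0% lower), by 0.71 to 2.37 log2 units with a median of 1.37, beside -0.23 for all genes. With NR the count was also 10 of 10 (14.4% of all genes higher, 32.2% lower), by 0.86 to 2.60 units with a median of 1.36, beside -0.20. Both comparisons share the cisplatin libraries with each other and with cisplatin against PBS. The ranges did not overlap for 7 genes with NMN and for 8 with NR, where 13.4% and 12.7% of all genes did so. Without cisplatin library 1 both counts were again 10 of 10.

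Plvap had 38.5, 63.7, 59.5 and 44.2 TPM with NMN, 56.9, 74.5, 63.8 and 46.5 TPM with NR, and no more than 21.7 TPM with cisplatin. Every library with a precursor lay above every cisplatin library, and the rise was 2.37 ± 0.31 with NMN and 2.60 ± 0.31 with NR (adjusted p = 8.75e-06 and 4.14e-06). Emcn had 18.9, 32.1, 21.9 and 20.3 TPM with NMN, 17.2, 34.6, 24.9 and 15.8 TPM with NR, and at most 13.0 TPM with cisplatin. Its rise was 1.96 ± 0.34 with NMN and 1.92 ± 0.34 with NR. Ehd3 had 4.36, 11.8, 7.31 and 6.18 TPM with NMN, 4.09, 8.88, 6.98 and 4.41 TPM with NR, and at most 1.54 TPM with cisplatin. It rose by 1.85 ± 0.27 with NMN and by 1.62 ± 0.27 with NR. Library 2 was the highest of its group for these genes in both precursor groups.

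Kdr had 3.72, 6.82, 4.91 and 5.07 TPM with NMN, 4.29, 7.03, 5.52 and 5.01 TPM with NR, and at most 2.08 TPM with cisplatin, a rise of 1.42 ± 0.23 with NMN and 1.51 ± 0.23 with NR. Flt1 had 2.70, 5.77, 3.64 and 3.88 TPM with NMN and 5, 6.08, 3.83 and 5.29 TPM with NR, beside up to 3.59 TPM with cisplatin. With NMN the Flt1 groups overlapped, and the rise of 0.72 ± 0.24 (adjusted p = 0.0211) was not called without cisplatin library 4 (adjusted p = 0.0795) or NMN library 2 (0.0784). With NR the rise was 1.01 ± 0.24 (adjusted p = 0.00243).

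Tek rose by 1.31 ± 0.24 with NMN and by 1.32 ± 0.24 with NR, at 4.06 ± 1.17 TPM with NMN, 4.03 ± 0.880 TPM with NR and 1.05 ± 0.584 TPM with cisplatin (SD, n = 4 each). Vegfa averaged 140.2 ± 20.7 TPM with NMN, 131 ± 26.5 TPM with NR and 49.4 ± 13.4 TPM with cisplatin, rising by 1.52 ± 0.20 and by 1.41 ± 0.20 in the same order. Its lowest library with a precursor, 102 TPM, lay above the highest cisplatin library, 63.2 TPM. Pecam1 averaged 9.20 ± 2.60 TPM with NMN and 11.02 ± 2.44 TPM with NR, beside 4.47 ± 2.97 TPM with cisplatin, and rose by 1.01 ± 0.30 and 1.26 ± 0.30. Cdh5 averaged 4.998 ± 1.35 TPM with NMN and 4.75 ± 0.482 TPM with NR, beside 1.97 ± 1.20 TPM with cisplatin, and rose by 1.07 ± 0.25 and 1.03 ± 0.25.

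Eng had the smallest margin. It had 21.2, 44.3, 36.6 and 25.6 TPM with NMN and 31.2, 40.9, 35.3 and 30.0 TPM with NR, beside 34.8 TPM in cisplatin library 1 and 13.9 to 15.8 TPM in the other cisplatin libraries. The rise was 0.71 ± 0.28 with NMN (adjusted p = 0.0439) and 0.86 ± 0.28 with NR (adjusted p = 0.0183). The call with NMN was lost without any 1 of cisplatin library 2, 3 or 4, NMN library 2 or 3, or NR library 1, 3 or 4, with adjusted p from 0.0507 to 0.138, and that with NR without cisplatin library 2 or 4 or NR library 2 (0.0532 to 0.0591). The call with NMN was also lost without trend and robust moderation (0.0512), with no minimum level (0.0692) and in a fit to the compared groups alone (0.0743), and both calls without NR libraries 3 and 4 together (0.0595 with NMN, 0.0581 with NR). Without cisplatin library 1 the rises were 1.01 and 1.15.

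**Figure D2:**
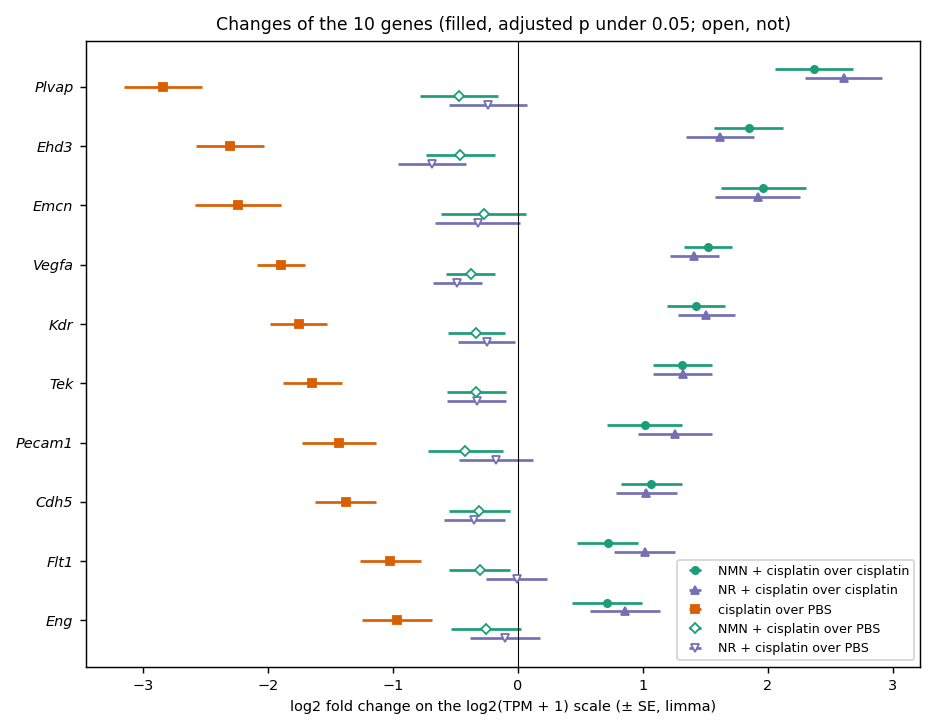
Log2 fold change on the log2(TPM + 1) scale (x axis, ± SE, limma) of the 10 genes (y axis, ordered by the change with cisplatin) in 5 comparisons. Filled symbols have an adjusted p under 0.05; all 10 genes are filled to the left for cisplatin over PBS and to the right for NMN or NR over cisplatin, and open near 0 for NMN or NR over PBS.

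None of the 10 genes was called between a precursor group and PBS by limma, where 0.116% of all genes were called lower and 5.89% higher with NMN, and 1.21% lower and 8.79% higher with NR. All 10 point estimates were under 0 in both comparisons, from -0.47 to -0.26 with NMN and from -0.69 to -0.01 with NR. At an unadjusted p under 0.05 there were 0 genes with NMN and 2 with NR, which were Ehd3 (-0.69, 95% interval -1.27 to -0.12) and Vegfa (-0.49, -0.90 to -0.08). Vegfa was called lower with NR than with PBS under median-of-ratios scaling (adjusted p = 0.0372), and Ehd3 under quantile normalization (0.0358). The intervals of the others leave room for a remaining deficit: that of Plvap ran from -1.13 to 0.18 with NMN and from -0.90 to 0.42 with NR. Kdr had an interval of -0.82 to 0.15 with NMN and of -0.73 to 0.23 with NR.

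NMN and NR, the phosphorylated form and the riboside, were given before the same drug and compared directly over the 10 genes. None was called (0 at an unadjusted p under 0.05, and 0.0% of all 12960 genes called), with differences from -0.30 to 0.23. The interval of NMN minus NR was -0.56 to 0.40 for Kdr, -0.81 to 0.22 for Flt1, -0.30 to 0.52 for Vegfa and -0.35 to 0.81 for Ehd3, so that differences of these sizes remain possible. The sign of the difference turned under at least 1 alternative for Kdr, Vegfa, Tek, Eng, Cdh5 and Emcn.

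Members were next set against the junction genes of the same library, by subtracting the mean log2(TPM + 1) of Pecam1 and Cdh5. With a pseudocount of 1 and denominator genes at a few TPM, such a difference depends in part on the library's scale and on the pseudocount. Relative to them, Plvap was lower in cisplatin than in PBS by a further 1.44 ± 0.31 log2 units (change -1.44, adjusted p = 4.39e-06), Ehd3 changed by -0.90 ± 0.32 (0.00626) and Emcn by -0.83 ± 0.31 (0.00800). Such a call in this direction was made for 2.51% of all genes, and the other direction for 87.0%. Kdr (-0.35 ± 0.33), Tek (-0.24 ± 0.33), Vegfa (-0.49 ± 0.31), Flt1 (0.38 ± 0.33) and Eng (0.44 ± 0.31) were not called. With array weights Flt1 (0.55, adjusted p = 0.0272) and Eng (0.59, 0.00988) were called higher relative to the junction genes, and Vegfa was called lower without cisplatin library 4 (-0.71, 0.0316).

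With NMN relative to cisplatin the same ratio rose for Plvap by 1.33 ± 0.31, for Emcn by 0.92 ± 0.31 and for Ehd3 by 0.81 ± 0.32, where 2.7% of all genes rose. With NR it rose for Plvap by 1.46 ± 0.31 and for Emcn by 0.78 ± 0.31, where 2.19% rose; Ehd3 at 0.48 ± 0.32 did not pass. The call of Emcn in cisplatin against PBS was lost at a pseudocount of 0.1 (adjusted p = 0.0523), and that of Emcn with NR at the same pseudocount (0.0679), without cisplatin library 2 (0.0659) or without NR library 2 (0.0674). The call of Ehd3 with NMN was lost without cisplatin library 2 (0.0592), without PBS 1, cisplatin 1 and cisplatin 3 together (0.0586), and with array weights (0.0951).

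**Figure D3:**
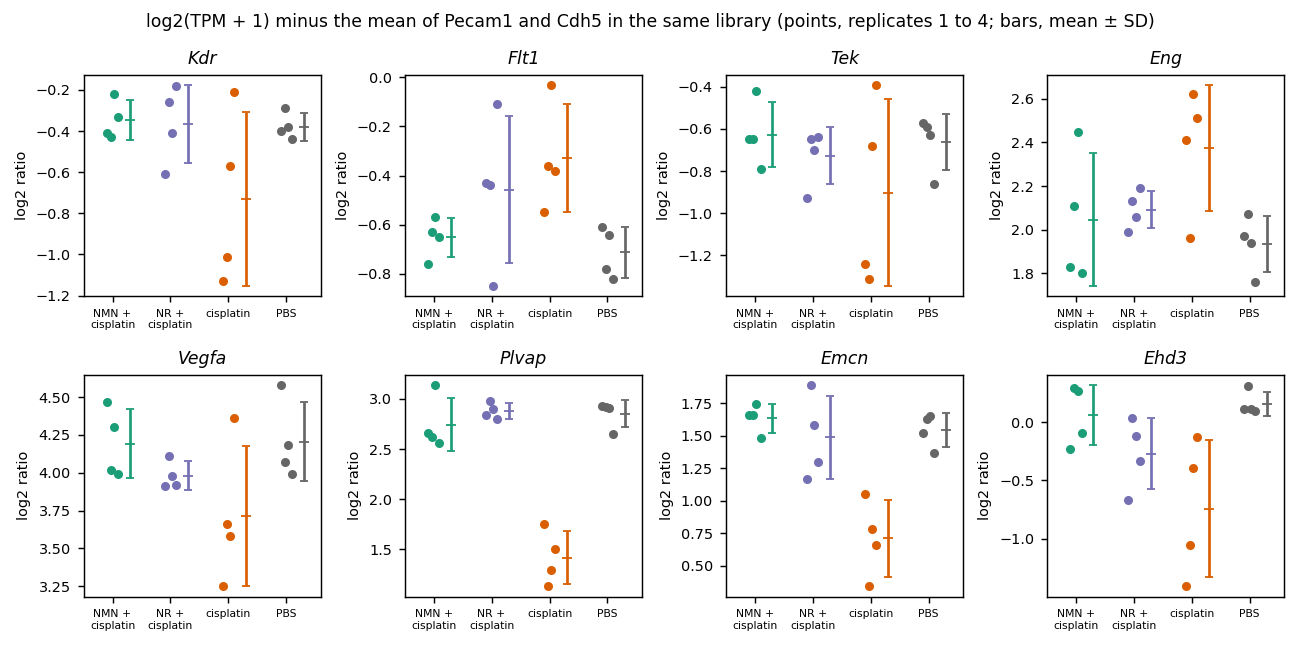
Log2(TPM + 1) of 8 genes minus the mean of Pecam1 and Cdh5 in the same library (y axis, log2 units; scales differ between panels), by group. Points are libraries 1 to 4 and bars are mean ± SD; for Plvap the 4 cisplatin libraries lie between 1.13 and 1.75, under all 12 others.

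Of 27 other tested pan-endothelial genes, 10 fell with cisplatin, 2 rose and 15 were not called, with a median of -0.54 beside 0.27 for all genes. Of all genes 18.6% were called lower and 40.7% higher. Under median-of-ratios scaling 19 fell and 2 rose, as under quantile normalization, and 17 fell and 2 rose when mitochondrially encoded genes were removed. More of all genes were also called lower under median-of-ratios scaling, 3709 of 12960 against 2415 without it. Adgrl4, an adhesion G protein-coupled receptor gene, fell by 1.597 ± 0.23 and Podxl, which podocytes also express, fell by 2.399 ± 0.42. The transcription factor gene Ets1 averaged 11.54 ± 2.22 TPM in cisplatin and 4.82 ± 1.41 TPM in PBS and rose by 1.13 ± 0.19, and Ramp2, an adrenomedullin receptor component, rose by 0.96 ± 0.19. The tight junction gene Cldn5 had 11.8, 10.9, 5.23 and 6.65 TPM in cisplatin, against 7.87, 14.2, 12.2 and 9.38 TPM in PBS, with overlapping groups (-0.34 ± 0.25, adjusted p = 0.261). Under median-of-ratios scaling Cldn5 was called lower (-0.63, adjusted p = 0.0226). Not called, with higher means in cisplatin than in PBS, were Esam (13.64 and 12.15 TPM), Nos3 (2.9 and 2.38) and Cd34 (7.79 and 7.21). So were Ecscr (6.71 and 5.27) and Sox17 (10.49 and 9.18). Egfl7, Robo4, Mmrn2, Gpihbp1, Rasip1, Fli1, Cyyr1 and Gata2 were not called in the fit without scaling. Under median-of-ratios scaling they were called lower, and their calls under the other alternatives are not given here. These genes fall outside the rule for named genes, as does Cldn5, which is given because it served in an alternative denominator.

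**Figure D4:**
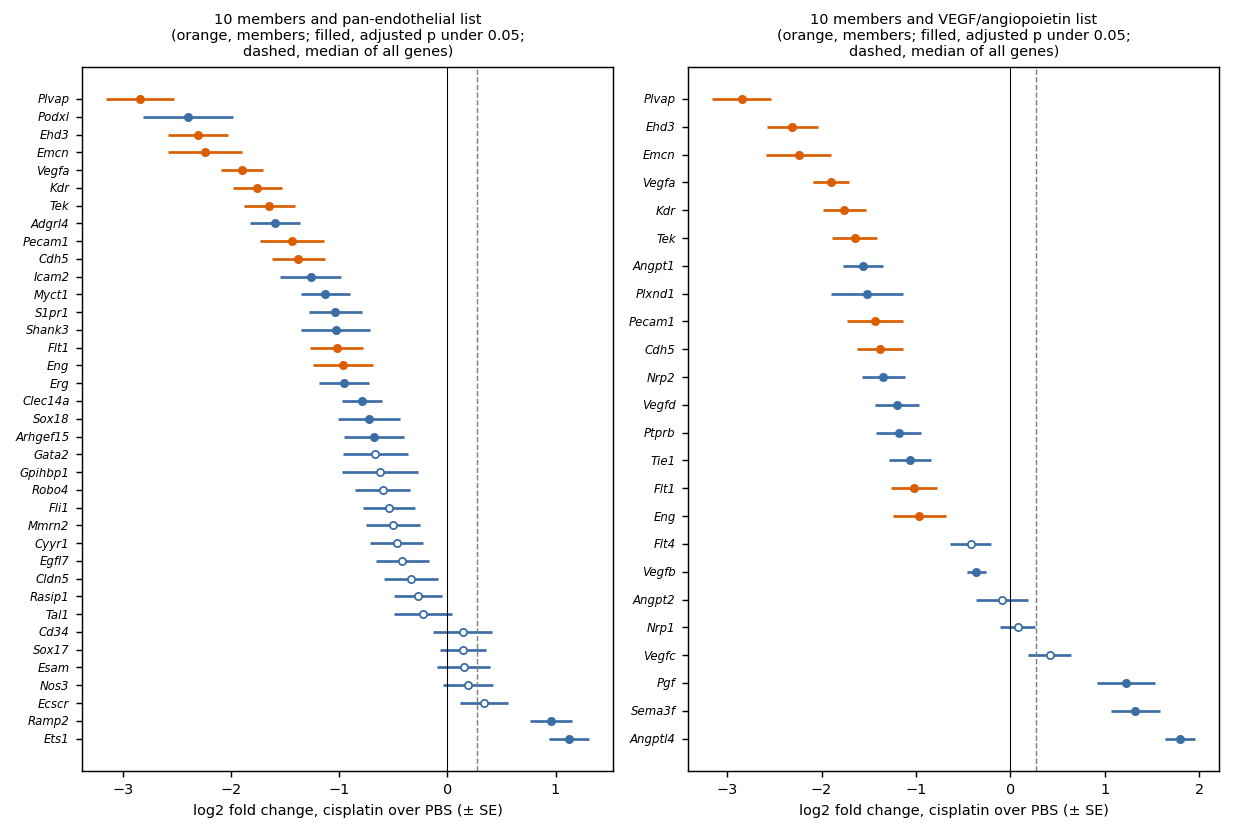
Log2 fold change of cisplatin over PBS (x axis, ± SE, limma) for the 10 members (orange) beside 27 pan-endothelial genes (left) and 14 VEGF and angiopoietin pathway genes (right), with genes on the y axis. Filled symbols have an adjusted p under 0.05 and the dashed line is the median of all genes at 0.27; Ets1 and Ramp2 on the left and Angptl4, Sema3f and Pgf on the right lie above 0.

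Around the members, 7 of 14 tested pathway genes fell, 3 rose and 4 were not called with cisplatin (8, 3 and 3 under median-of-ratios scaling), with a median of -0.39. Of all genes 18.6% were called lower and 40.7% higher, and under that scaling 3709 and 3787 of 12960. Among the ligands, Vegfb had 34.0 ± 3.76 TPM in cisplatin and 43.8 ± 3.47 TPM in PBS, a fall of 0.36 ± 0.10 (adjusted p = 0.00617). Vegfd, a ligand known for lymphatic vessels, fell by 1.20 ± 0.24, whereas Pgf, the placental growth factor gene and a ligand of VEGFR1, rose by 1.22 ± 0.31 (adjusted p = 0.00211), with 3.41, 2.65, 3.17 and 0.56 TPM in cisplatin and 0.10 to 0.81 TPM in PBS. Vegfc was not called (0.41 ± 0.22). Sema3f, a semaphorin that binds neuropilin-2, rose by 1.32 ± 0.26.

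On the angiopoietin side, Angpt1, the activating ligand of TIE2, had 0.22, 0.14, 0.42 and 0.20 TPM in cisplatin, against 2.65, 3.27, 1.72 and 3.25 TPM in PBS. It fell by 1.56 ± 0.21 (adjusted p = 4.82e-06) on a scale that understates changes near 0. Angpt2, the context-dependent antagonist, was not called (-0.09 ± 0.27), at 0.908 ± 0.375 TPM in cisplatin and 1.103 ± 0.817 TPM in PBS. Tie1, the partner receptor of TIE2, fell by 1.06 ± 0.22 and Ptprb, the phosphatase that acts on TIE2, by 1.18 ± 0.24. Angptl4, an angiopoietin-like inhibitor of lipoprotein lipase, had 178 ± 8.89 TPM in cisplatin and 50.8 ± 7.02 TPM in PBS and rose by 1.80 ± 0.16 (adjusted p = 1.87e-08).

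Of the co-receptors, Nrp2 fell by 1.35 ± 0.23 and Nrp1 was not called (0.08 ± 0.18). Plxnd1, a plexin of endothelial guidance, fell by 1.52 ± 0.38, and Flt4, the gene of VEGFR3, was not called (-0.42 ± 0.22, adjusted p = 0.102), but was under median-of-ratios scaling (-0.59, 0.0132). With NMN and with NR relative to cisplatin, Vegfb, Vegfd, Nrp2, Angpt1, Tie1, Plxnd1 and Ptprb each rose, and Pgf and Angptl4 each fell; Sema3f fell with NMN (-0.99 ± 0.26) and was not called with NR (-0.54 ± 0.26). Relative to cisplatin, 15.1% of all genes were called higher with NMN and 14.4% with NR, and 34.0% and 32.2% lower. Angptl4 alone of the 14 was called between a precursor and PBS. It averaged 80.3 ± 22.4 TPM with NMN, 94.4 ± 10.8 TPM with NR and 50.8 ± 7.02 TPM with PBS (rises of 0.62 ± 0.16 and 0.88 ± 0.16). Against PBS, 5.89% of all genes were called higher with NMN and 8.79% with NR, so 1 of 14 is no result about the list.

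Most genes that mark vessel beds fell. Of 8 tested peritubular genes 7 fell and 1 rose with cisplatin (median -1.46), beside 18.6% of all genes called lower and 40.7% higher. Igfbp3 averaged 13.1 ± 4.24 TPM in cisplatin and 136 ± 57.3 TPM in PBS, and Esm1, the endocan gene that VEGF induces in endothelium, 0.478 ± 0.325 and 8.62 ± 1.92 TPM. The exception was Rsad2, an interferon-induced gene, with a rise of 1.26 ± 0.23. Of 8 glomerular endothelial genes 5 fell and 1 rose, beside the same shares of all genes. Lpl fell by 3.13 ± 0.13, and Plat, the tissue plasminogen activator gene, averaged 522 ± 138 TPM in cisplatin and 19.7 ± 8.10 TPM in PBS, a rise of 4.71 ± 0.37. Aplnr, the apelin receptor gene, is on both lists and fell by 1.71 ± 0.22. Several of these genes are expressed by other kidney cells too.

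Of 13 arterial, tip cell and Notch genes, 2 fell, 1 rose and 10 were not called (5, 1 and 7 under median-of-ratios scaling), beside 18.6% of all genes called lower and 40.7% higher. Under that scaling 3709 of 12960 genes were called lower and 3787 higher. The counts without that scaling are not above the shares of all genes and are no result about the list. The Notch ligand gene Dll4 fell by 1.04 ± 0.24 and the venous factor gene Nr2f2 by 1.04 ± 0.21, while the netrin receptor gene Unc5b rose by 1.68 ± 0.19.

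Most tested genes of endothelial activation rose. Of 7 tested, 6 rose with cisplatin and 0 fell (median 2.12), and the same 6 fell with NMN and with NR relative to cisplatin. Of all genes 40.7% were called higher with cisplatin, and 34.0% and 32.2% lower with NMN and with NR. Icam1, the leukocyte adhesion gene, averaged 23.1 ± 6.66 TPM with NMN, 28.6 ± 3.28 TPM with NR, 62.5 ± 4.36 TPM with cisplatin and 7.11 ± 1.96 TPM with PBS. Edn1, the endothelin-1 gene, averaged 2.398 ± 1.06 TPM with NMN, 2.96 ± 0.314 TPM with NR, 7.35 ± 1.59 TPM with cisplatin and 0.448 ± 0.175 TPM with PBS. With either precursor 4 of the 7 were called higher than PBS and 3 were not called. Beside this, 5.89% of all genes were called higher with NMN and 8.79% with NR. Among the 4 were Icam1, Edn1 and the tissue factor gene F3, which was chosen after its values were seen. These genes are also expressed by injured tubule and other cells.

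Around Eng, 7 of 11 genes of the BMP and TGF-beta branch rose with cisplatin, 1 fell and 3 were not called (5, 3 and 3 under median-of-ratios scaling). Of all genes 40.7% were called higher and 18.6% lower, and under that scaling 3787 and 3709 of 12960. Tgfbr2, the type II TGF-beta receptor gene, rose by 1.58 ± 0.16, Smad1 by 1.15 ± 0.17 and the BMP target gene Id3 by 1.31 ± 0.22, while Tgfbr3 fell by 0.59 ± 0.22. Around Vegfa, 8 of 19 hypoxia targets rose and 5 fell (5 and 6 under median-of-ratios scaling), where 40.7% of all genes were called higher and 18.6% lower, so the counts are no result about the list. The glucose transporter gene Slc2a1 rose by 2.48 ± 0.16, adrenomedullin (Adm) by 2.05 ± 0.18 and Hk2 by 2.22 ± 0.21, whereas Ndrg1, Bnip3, Egln1, Car9 and Epas1, the HIF-2alpha gene, fell by 0.62 to 1.49. Vegfa, itself a hypoxia target in many cells, fell with the second set.

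Of 9 angiogenesis inhibitor genes 4 rose and 3 fell, beside the same 40.7% and 18.6% of all genes. Under median-of-ratios scaling 3 rose and 4 fell, beside 3787 and 3709 of 12960 genes, and these counts too are read only gene by gene. Col18a1, whose protein yields endostatin, averaged 254 ± 30.0 TPM in cisplatin and 36.05 ± 5.92 TPM in PBS (rise of 2.79 ± 0.19), and the sprouty gene Spry2 rose by 1.91 ± 0.17 and the protease gene Adamts1 by 2.36 ± 0.18. Timp3 fell by 1.67 ± 0.15, Hrg by 1.58 ± 0.22 and Serpinf1 by 0.85 ± 0.34.

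Other cell types moved in the same libraries, where 18.6% of all genes were called lower and 40.7% higher with cisplatin. Of 12 pericyte, mesangial and smooth muscle genes 7 fell, among them Rgs5 (-1.91 ± 0.28), and 3 rose, which were Pdgfb, Cspg4 and Mcam; the list summed to 88.0 to 175 TPM in cisplatin and 144 to 289 TPM in PBS. Of 8 red cell genes 6 fell, with a sum of 35.0 to 53.7 TPM in cisplatin and 1901 to 3848 TPM in PBS, and Hbb-bs was between 1.25 and 11.1 TPM in cisplatin. Of 11 leukocyte and platelet genes 2 rose, Cd68 and Cd79a, and 2 fell, Csf1r and Ptprc. These leukocyte counts are not above the shares of all genes and are no result about the list. The list summed to 138 to 202 TPM in cisplatin and 45.1 to 69.8 TPM in PBS, with Cd68 alone at 104.8 ± 11.3 TPM in cisplatin and 3.48 ± 2.10 TPM in PBS; Csf1r was at 5.15 ± 0.884 TPM in cisplatin and 17.3 ± 4.61 TPM in PBS. Of 7 adipose genes 6 rose, with sums of 229 to 460 TPM in cisplatin and 49.8 to 175 TPM in PBS, and of 3 lymphatic genes Pdpn rose and Ccl21a fell. Under median-of-ratios scaling 12 podocyte, 8 pericyte and 7 red cell genes were called lower and 2 pericyte genes higher, where 3709 of 12960 genes were called lower and 3787 higher. The part of these cells in the results on the members was not tested.

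Within groups, the endothelial members varied together. Over the 16 libraries, after subtraction of the group means, the 36 pairs of the 9 members other than Vegfa had Pearson correlations of 0.58 to 0.96 (median 0.86), lowest for Flt1 with Ehd3 and highest for Kdr with Tek. The 9 pairs with Vegfa had 0.51 to 0.79. These points share libraries and their scaling, so the values are descriptions. Libraries 2 of the NMN and NR groups were the highest for 10 of 10 genes, PBS libraries 2 and 3 were the 2 highest for 10 of 10, and NMN library 1 and PBS library 1 were each the lowest for 9. NMN library 2 (12370), NR library 2 (12334) and PBS libraries 2 (12211) and 3 (12125) also had the most genes at 1 TPM or more in their groups. NMN library 1 (11861) and PBS library 1 (11535) had the fewest. The share of all genes with this order was not computed, so the order cannot be called particular to the members.

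**Figure D5:**
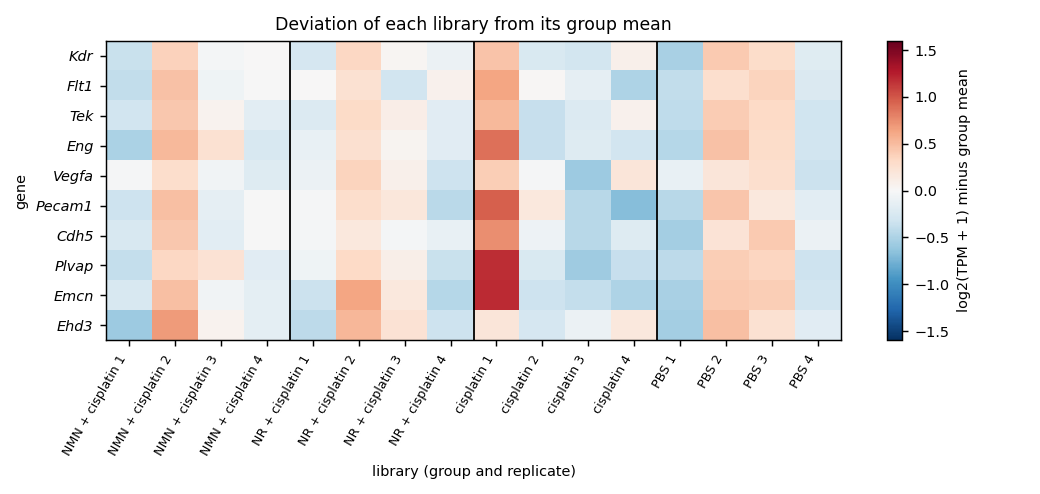
Log2(TPM + 1) of the 10 genes (rows) in each of 16 libraries (columns, ordered by group) minus the mean of the library's group; red is above and blue below the group mean. Cisplatin library 1 is above its group mean for all 10 genes.

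The genes outside the 10 whose deviations were most like the mean of the 9 were Cd74 (r = 0.97), Il10ra (0.97), C1qa (0.97), H2-Aa (0.96) and Mpeg1 (0.96), over 16 libraries and beside a median of 0.28 for all genes. Cd74 encodes the class II invariant chain and H2-Aa a class II chain, C1qa a complement subunit, Il10ra a cytokine receptor and Mpeg1 a macrophage perforin. Cd74 averaged 171 ± 53.2 TPM with NMN, 156 ± 48.2 TPM with NR, 31.2 ± 14.2 TPM with cisplatin and 220.1 ± 88.6 TPM with PBS and fell with cisplatin (-2.78), as did H2-Aa (-3.40). Il10ra, C1qa and Mpeg1 were not called (adjusted p = 0.101, 0.0530 and 0.0934). With the same mean, the podocyte list had a median r of 0.86, the pan-endothelial list 0.78 and the pericyte list 0.74. The peritubular list had a median of 0.65, the glomerular endothelial list 0.56 and the proximal tubule list -0.07. For the leukocyte and platelet list the median r was 0.32 (range -0.27 to 0.9), near the 0.28 of all genes. Likeness to the members was thus not general among the listed leukocyte and platelet genes. In cisplatin library 1, 12 of 12 podocyte genes were above the other 3 libraries (median ratio 4.49), and Ren1 of the juxtaglomerular cells, singled out after its values were seen, had 61.4 TPM beside 5.82 to 7.53 TPM. Also above the other 3 libraries were 20 of 27 pan-endothelial genes, 9 of 11 BMP and TGF-beta genes, 8 of 9 angiogenesis inhibitor genes and 2 of 12 proximal tubule genes. The share of all genes placed this way was not computed, so these counts cannot be called particular to any list.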

How the data were processed

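Values were the authors' deposited TPM per gene and library, with no read counts. The submitters' processing notes name GRCm38 and mm10 as builds, and as tools DESeq2 1.10.1, HTSeq 0.6.1, STAR 2.4.1d and Trim Galore, without roles; annotation, gene lengths and strandedness are not stated. TPM keeps no depth, so no counting interval is given. Of 23982 entries, 94 shared a symbol and were summed; 5699 symbols were listed at 0 in every library.

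Genes with at least 1 TPM in 4 of 16 libraries were tested on log2(TPM + 1), which understates changes of low genes. A single limma model (3.58.1, with statmod 1.5.0 in R 4.3.3), fitting 4 group means (12 residual degrees of freedom, trend and robust moderation) gave every comparison, adjusted over 12960 genes; SEs and 95% intervals are limma's. Ratios to Pecam1 and Cdh5 were fitted likewise over 12958 genes, and 2 simple ratios got exact permutation tests (scipy 1.17.1). The procedure was tested on simulated data. Members and lists were chosen with earlier results of these data known. Named were the 10 members, every gene of the VEGF and angiopoietin list, of each other list the 3 called genes with the smallest adjusted p with cisplatin and called genes against the list's median, and the 5 genes most like the members; some genes that this rule names are not reported here. Alternatives were other moderation, scaling (median-of-ratios, quantile, mitochondrially encoded genes removed), a pseudocount of 0.1, minima of 5 TPM and none, a replicate block, array weights, fits to the compared groups alone, another denominator, and libraries left out. Promoter windows are RefSeq's.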

Additional observations from a re-analysis of the deposited data

Results flagged for a closer look

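In 3 of the 40 sets of 4 libraries (10 genes in 4 groups), 1 library lay far from the other 3, by a gap over range above Dixon's 95% critical value; chance flags about 1 in 20 sets, and the sets are not independent. All 3 were cisplatin library 1. Eng was at 34.8 TPM there, beside 13.9 to 15.8 TPM in the other cisplatin libraries. Plvap was at 21.7 TPM, beside 5.69 to 7.40 TPM. Emcn was at 13.0 TPM, beside 3.33 to 3.86 TPM.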

How the results depend on the processing

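All 10 members were called lower in cisplatin than in PBS under every alternative run. With NMN against cisplatin 8 to 10 were called when a library was left out and 9 to 10 otherwise, and with NR 9 to 10 in both. Between NR and PBS 1 member was called, against 0, under median-of-ratios scaling (Vegfa) and under quantile normalization (Ehd3). The pan-endothelial calls (12 in cisplatin against PBS, 8 with NMN and 10 with NR against cisplatin) became 21 under median-of-ratios scaling, 21 under quantile normalization and 19 without mitochondrially encoded genes in cisplatin against PBS, and 5 with NMN and 6 with NR at a minimum of 5 TPM, where 17 genes were tested. Against PBS, 1 was called with NMN under median-of-ratios and under quantile scaling and 1 with NR under quantile scaling, against 0, and 0 to 1 with either when a library was left out.

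Of ratios to Pecam1 and Cdh5, 3, 3 and 2 were called in cisplatin against PBS, NMN against cisplatin and NR against cisplatin. With array weights 5 and 5 were called in the first pair, with Flt1 and Eng higher in cisplatin than in PBS (0.55 and 0.59) and lower with NMN than with cisplatin. The Vegfa ratio was called higher with NMN than with cisplatin with array weights (0.546, adjusted p = 0.0080). It was also called under quantile normalization (0.55, 0.0492) and without cisplatin library 4 (0.695, 0.0390). In NR against cisplatin the Eng ratio was called lower with array weights (-0.419, 0.043). With the denominator of Cldn5, Esam and Egfl7 all 8 were called in each comparison, where 11.1% of all genes were called lower in cisplatin, 10.5% higher with NMN and 7.25% higher with NR. Those 3 genes were not called with cisplatin, so these ratios largely restate the changes without a denominator. There the Flt1 change was -0.82, 0.71 and 0.80 in these comparisons and that of Eng -0.76, 0.70 and 0.64. For NR 1 was called at a pseudocount of 0.1 and 1 to 2 when a library was left out, by the first denominator. In NR against cisplatin the Vegfa ratio turned to -0.026 without PBS 1, cisplatin 1 and cisplatin 3, the Tek ratio to -0.028 with array weights, and that of Flt1 ran from -0.24 to 0.002 when a library was left out.

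Small differences turned sign. Without NR libraries 3 and 4, Flt1 in NR against PBS was 0.11, and in NMN against NR Vegfa was -0.018, Cdh5 -0.029 and Emcn -0.10. Tek in NMN against NR was 0.017 under median-of-ratios scaling, 0.037 under quantile normalization and 0.024 with array weights. When a library was left out, Flt1 ran from -0.14 to 0.11 and Eng from -0.26 to 0.048 in NR against PBS, and in NMN against NR Kdr ran from -0.21 to 0.035, Vegfa from -0.001 to 0.23, Tek from -0.14 to 0.10, Eng from -0.32 to 0.023, Cdh5 from -0.10 to 0.12 and Emcn from -0.11 to 0.26. The cause of these changes was not tested. The replicate numbers did not meet the bar for pairing, a correlation over 0.1 in every pair: of 24 same-numbered correlations 9 did (range -0.13 to 0.29), with 0.048 to 0.287 between NMN and PBS. With the replicate block 10 members were called in each of the first 3 comparisons and 0 in the others. The depth behind TPM is unknown, so nothing can be said of counting error.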
